A study of Homo sapiens with 12 samples.

Results

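The genes described here are 39 human genes of glucose uptake, glycolysis, glycogen and pyruvate use, taken by symbol from a table of 28395 genes. The list was set by gene function, with earlier results of these data known, and each symbol was found once in the table. Levels came from RNA sequencing of KG1a, an established human line of acute myeloid leukaemia whose cells carry CD34, a surface marker of blood progenitors. CD38 and CLL-1 are surface molecules that differ with myeloid maturity. The 4 groups, with 3 libraries each, were CD34+ CD38dim CLL-1dim cells in normoxia, CD34+ CD38bright CLL-1bright cells in normoxia, and the same subsets in hypoxia at 3% oxygen. They are called dim and bright below, with the oxygen level in front. All groups came from the same cell line, labelled wild type, grown in RPMI medium with fetal bovine serum, and all libraries carry 1 batch label. The study asked how oxygen affected both subsets. How long cells stayed in hypoxia, and which oxygen level normoxia was, is not stated in the labels used. A single line stands for the disease here, so nothing speaks to differences between lines or patients.

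Glycolysis splits glucose into pyruvate. Cells take up glucose through transporters, trap it as a phosphate with hexokinase, commit it at phosphofructokinase, and either send pyruvate into mitochondria or reduce it to lactate, which leaves through monocarboxylate transporters. Glycogen is the branched store from which phosphorylase releases glucose units. Many of these genes are textbook targets of the hypoxia-inducible factors (HIF), which accumulate at low oxygen, and leukaemia cells are known for high glycolysis.

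The values are read counts that the authors divided by a size factor per library and rounded, called normalized values here. Library sums ran from 31828256 to 32560463, and gaps at regular steps in the rounded values gave an estimated depth of 25200000 to 39500000 counted reads. Each of the 39 members was among the 15057 genes tested, the filter being 10 or more in 3 or more libraries. CD34 lay between 17184 and 20882 in dim and between 28691 and 32370 in bright libraries. CD38 lay between 2 and 25 in dim and between 60 and 161 in bright libraries, and CLEC12A, which encodes CLL-1, between 9 and 40 in both. CLEC12A was low and did not follow the CLL-1 label: bright and dim libraries overlapped, with log2 fold changes of 0.10 ± 0.58 (SE) under low oxygen (limma, adjusted p = 0.912) and of -0.48 ± 0.58 at normoxia (adjusted p = 0.722). Transcripts used as markers of other cell types were present unevenly, and their origin was not tested. The sum of 15 airway epithelium markers was 176 to 223 in normoxic dim, 265 to 7621 in normoxic bright, 1186 to 19229 in hypoxic dim and 50 to 1152 in hypoxic bright libraries, with TFF3 at 0 in 11 of the 12. Skeletal muscle markers (15 genes) summed to 2335 to 7057 in normoxic dim, 725 to 4957 in normoxic bright, 812 to 1276 in hypoxic dim and 701 to 966 in hypoxic bright libraries. Granule genes of neutrophils (6 genes) summed to 70 to 168, 199 to 1757, 74 to 15138 and 47 to 54 in the same order. RNASE3, the granule gene of eosinophils, was never above 6. CTSG of that list went the other way in hypoxia, at 15, 19 and 11 in dim and 32, 28 and 27 in bright libraries. Single genes carry much of the low sums. MYH3 (194 to 484) and MYL4 (250 to 414) were present in all 12 libraries, whereas CKM was at 0 to 3 in hypoxic ones. KRT7, at 132 to 164, made up most of the airway sum in normoxic dim libraries. Whether the 3 replicates of a group were separate cultures is not stated in the labels, and p-values then reflect only the spread among these libraries, which may be technical. In such bulk RNA, fewer cells of a type and less RNA per cell cannot be told apart.

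The 39 members together took 1.34 ± 0.0442% (SD, n = 3) of the summed values in normoxic dim, 1.29 ± 0.0781% in normoxic bright, 1.41 ± 0.0933% in hypoxic dim and 1.50 ± 0.14% in hypoxic bright libraries. Hypoxic bright libraries lay at 1.65%, 1.48% and 1.37%, and hypoxic dim libraries at 1.46%, 1.46% and 1.30%, so these groups overlap. Members spanned more than 3 orders of magnitude once values were divided by exon length. GAPDH, the dehydrogenase of the middle of glycolysis, led with a mean of 54075 normalized units per kb of exon over the 12 libraries. The enolase ENO1 followed with 25205 per kb, LDHA with 12220, the aldolase ALDOA with 11570 and LDHB with 7909. At the other end stood PFKFB4 with 71.3, ALDOC with 48.7, TIGAR with 34.7, PFKFB2 with 20.5 and the muscle phosphofructokinase PFKM with 17.7 per kb. PFKFB4 and ALDOC, both low, had the largest log2 fold changes called among the members, whereas the most abundant enzymes, GAPDH and ENO1, passed no comparison.

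**Figure D1:**
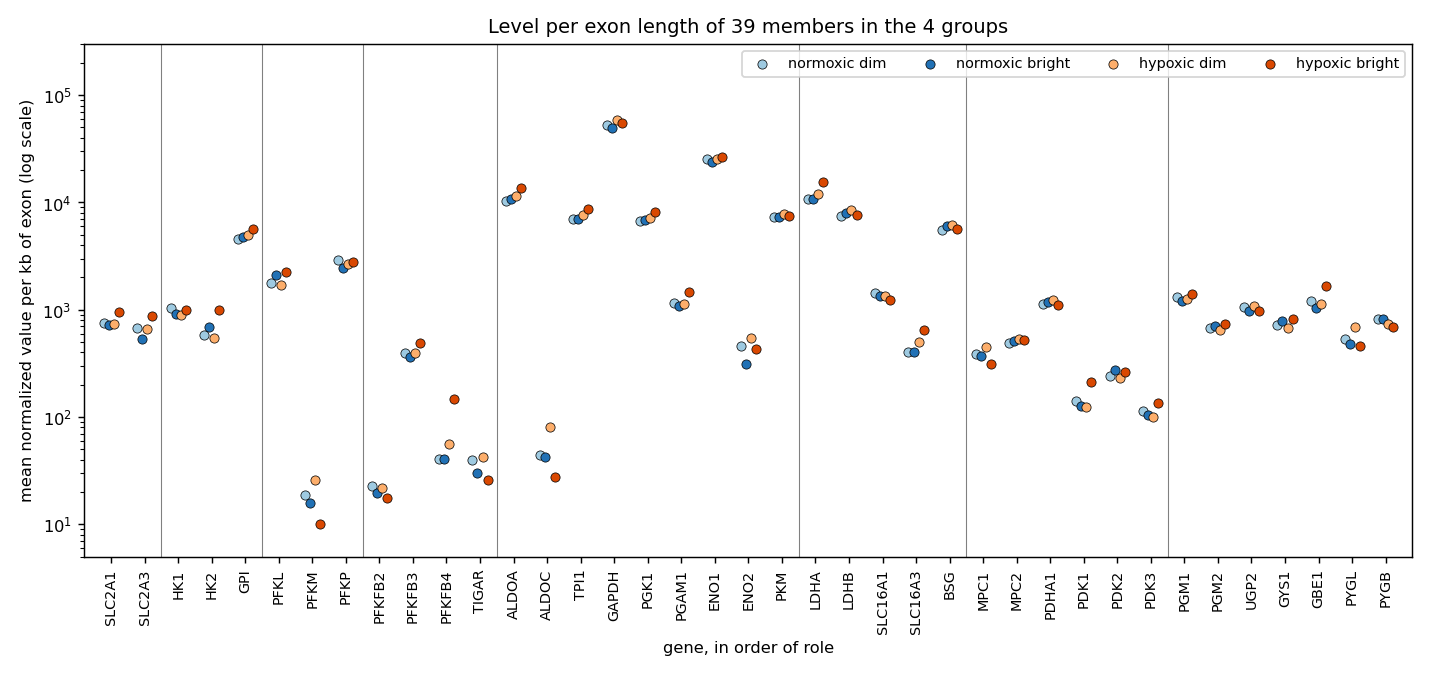
Mean normalized value per kb of exon (log axis) of the 39 members in the 4 groups, each point the mean of 3 libraries, with genes in order of role. GAPDH and ENO1 stand highest and PFKM and PFKFB2 lowest, and the points of PFKFB4 and ALDOC are the most spread between groups.

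Hypoxia against normoxia in bright cells asked how oxygen acted on that subset. At 3% oxygen 4 of 39 members rose: PFKFB4, a kinase and phosphatase that sets the phosphofructokinase activator fructose-2,6-bisphosphate, 3.32-fold, the lactate exporter SLC16A3 1.61-fold, the neuronal-type glucose transporter SLC2A3 1.59-fold and lactate dehydrogenase A 1.41-fold. No member fell (limma, Benjamini-Hochberg adjusted p under 0.05 over 15057 genes, the threshold used throughout). At an unadjusted p under 0.05, 18 members were higher and 2 lower, where 7.43% and 8.05% of all genes tested were. The 4 are 10.3% of the members, and of all genes tested 0.478% rose and 0.359% fell. The median log2 fold change of the members was 0.17, against -0.00 over all genes tested, and 26 of 39 members lay above 0. In 13 members all hypoxic bright libraries were above all normoxic bright ones (33.3%, background 11.9%), and in 3 members all were below (7.69%, background 10.4%). The count of 4 rests on the libraries: it was 1 without normoxic bright replicate 1, 0 without normoxic bright replicate 2 or 3 or hypoxic bright replicate 1 or 2, and 9 without hypoxic bright replicate 3, where GBE1, HK2, PDK1, PGAM1 and SLC2A1 joined.

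In dim cells the same comparison called no member. No member rose and none fell (limma), where 0.199% of all genes tested rose and 0.0332% fell. At an unadjusted p under 0.05, 4 members were higher and 1 lower. Of all genes tested 8.48% and 8.96% were, so the higher count is near the background. The median log2 fold change was 0.03 for the members and 0.00 for all genes tested. All hypoxic dim libraries were above all normoxic dim ones in 6 members (background 9.08%) and below in 1 member (background 8.4%). The smallest adjusted p was 0.155, of ALDOC, the aldolase best known from brain. Without hypoxic dim replicate 3 the liver glycogen phosphorylase PYGL passed, so that 1 of 39 members (2.56%) was called higher, where 2.01% of all genes tested were.

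**Figure D2:**
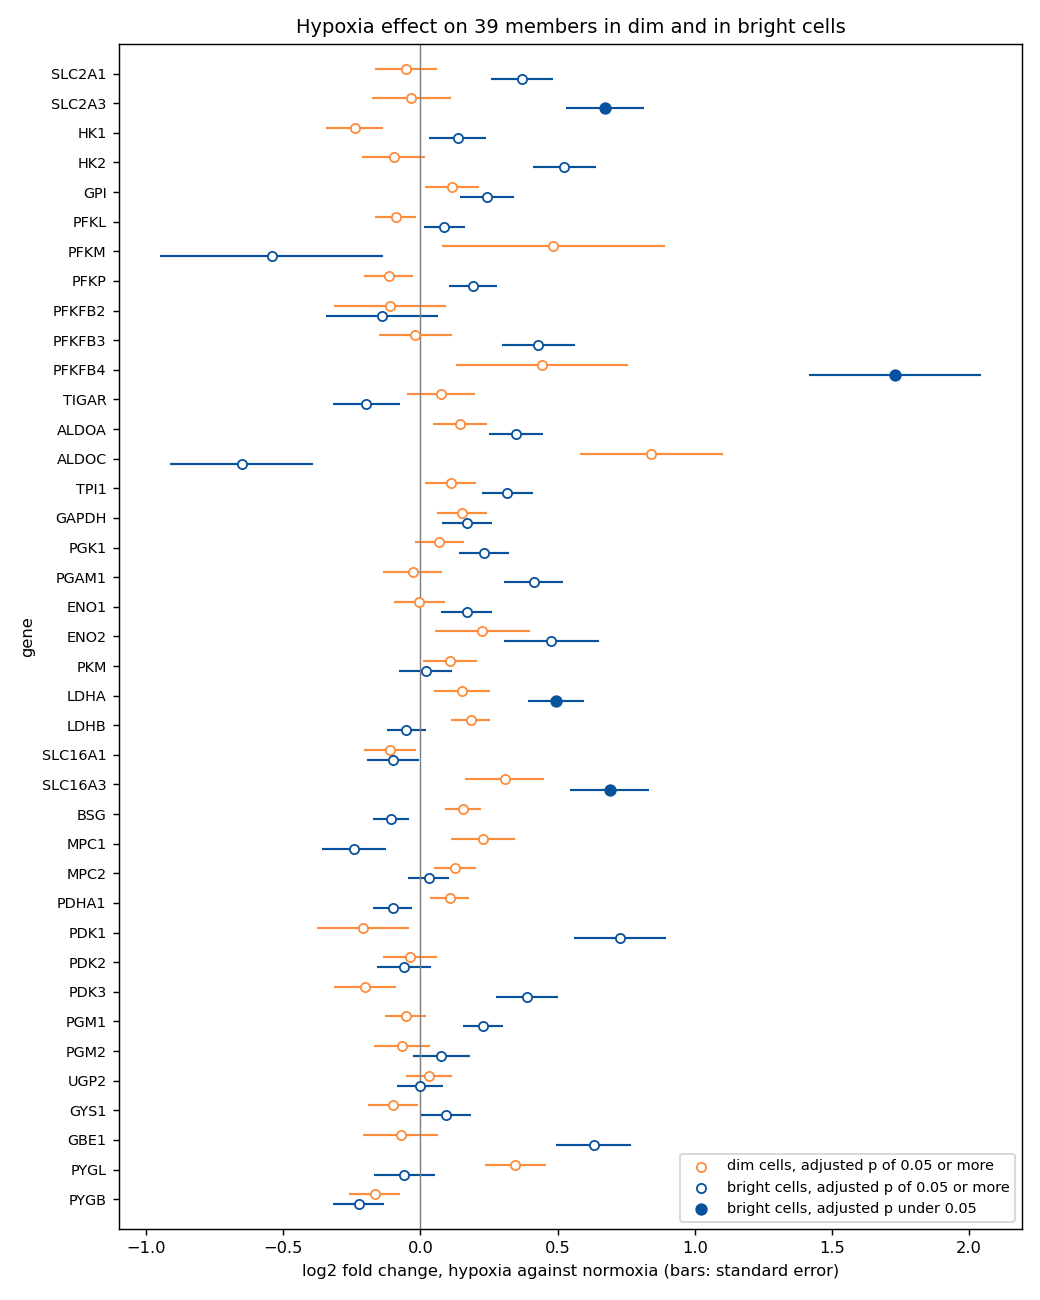
Log2 fold change of the 39 members for hypoxia against normoxia in dim cells (orange) and in bright cells (blue), with the standard error as bars and n = 3 libraries a group; filled points passed an adjusted p under 0.05 in limma. PFKFB4, LDHA, SLC16A3 and SLC2A3 are the filled points, all in bright cells, and ALDOC lies at 0.84 in dim and -0.65 in bright cells.

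Bright against dim cells in hypoxia gave the most calls among the members. Of 39 members, 10 were higher in bright cells: HK2, PFKL, PDK1, PFKFB4, PDK3, GBE1, LDHA, PGAM1, SLC2A1 and GYS1. Another 5 were lower: ALDOC, TIGAR, PYGL, MPC1 and PFKM. These are 25.6% and 12.8% of the members, where 12.9% of all genes tested were higher and 13.6% lower, so the lower share is near the background. The members' median log2 fold change was 0.16, against -0.03 over all genes tested. Groups did not overlap in 12 members with bright above dim (30.8%, background 19.2%) and in 6 with bright below dim (15.4%, background 21.9%). The 10 higher calls fell to 4 without hypoxic bright replicate 1 and to 4 without hypoxic bright replicate 2. These 4 are 10.3% of the members, near the 8.42% and 7.26% of all genes tested that were then called higher. In each case GBE1, GYS1, LDHA, PDK3, PGAM1 and SLC2A1 were the calls lost, and HK2, PFKL, PDK1 and PFKFB4 were kept. Without hypoxic bright replicate 3 the count was 13, where 10.3% of all genes tested were higher. Of the airway epithelium markers tested, 6 of 13 were lower in these bright libraries and none higher, and of the granule genes 3 of 5 were lower and none higher. Without the library highest in airway markers in each group, 1 member stayed higher (HK2) and 1 lower (ALDOC). That comparison of 2 libraries a group called 673 genes in place of 3994. Of all genes tested 2.35% were then higher and 2.12% lower, so these member counts are near the background. The log2 fold changes of members whose call was lost were then 0.35 for LDHA (0.35 with all libraries), 1.40 for PFKFB4 (1.26), 0.74 for PDK1 (0.78) and 0.40 for PFKL (0.42). Without the library highest in granule genes in each group they were 0.23, 0.75, 0.50 and 0.47 in the same order, and PFKL kept its call. In hypoxia this left out replicate 1 of each subset. Among hypoxic bright libraries, replicate 1 had the highest granule sum by little (54, against 53 and 47). That library was also the highest of its group in 28 of 39 members, and the reason for the changed values was not tested. Of the 5 lower calls, 4 stayed without the library highest in muscle genes in each group and 4 without that highest in granule genes. Of all genes tested 3.94% and 7.89% were then lower.

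Between the subsets in normoxia no member passed. None was higher and none lower in bright cells (limma), where 2.88% of all genes tested were higher and 3.79% lower. At an unadjusted p under 0.05, 1 member was higher and 4 were lower. Of all genes tested 9.07% and 9.7% were, so the lower count is near the background. The median log2 fold change was -0.06 for the members and -0.01 for all genes tested. Bright libraries were all above dim ones in 3 members (background 12%) and all below in 6 members (background 11.7%). TIGAR had the smallest adjusted p, at 0.06. Without normoxic bright replicate 1 the enolase ENO2 and the platelet phosphofructokinase PFKP were lower in bright cells, and these 2 calls (5.13%) are near the 4.44% of all genes tested that were then lower.

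Whether hypoxia acted differently on the subsets was tested directly as the difference of both hypoxia effects. No member passed in either direction (limma), where 2.36% of all genes tested did. At an unadjusted p under 0.05 the effect was higher in bright cells for 13 members and lower for 5. Of all genes tested 11% were higher and 11% lower, so the lower count is near the background. The median difference was 0.17 for the members and -0.00 for all genes tested. The 6 smallest adjusted p-values were 0.0525 for ALDOC (-1.49 ± 0.37, log2 with SE), 0.0554 for PDK1 (0.94 ± 0.24), 0.0598 for HK2 (0.62 ± 0.16), 0.0657 for PDK3 (0.59 ± 0.16), 0.0678 for GBE1 (0.70 ± 0.19) and 0.0750 for SLC2A3 (0.71 ± 0.20). PFKFB4, at 1.29 ± 0.44, had an adjusted p of 0.12. These values move with single libraries. Without hypoxic bright replicate 3, 8 members passed as higher (GBE1, HK2, LDHA, PDK1, PDK3, PFKFB4, SLC2A1 and SLC2A3), where 1.24% of all genes tested did. Without hypoxic dim replicate 3, GBE1, PDK1, PDK3 and SLC2A3 passed as higher (4 members) and ALDOC and PYGL as lower (2 members), where 5.19% of all genes tested were higher and 4.91% lower, so that the lower share of 5.13% is near the background. HK2 passed without normoxic dim replicate 1, normoxic bright replicate 1 or hypoxic dim replicate 1 (1 member each), and ALDOC without the first or the last of these (1 member each). With 1 of 39 members at 2.56%, these counts are near the 1.4% to 2.5% of all genes tested in the same direction.

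The promoters of members that moved are shown because HIF is known to bind DNA at ACGTG and GCGTG. Windows of 300 bases around RefSeq start sites (250 bases before to 50 after) were searched on both strands for these letters. RefSeq windows were found for 36 of the 39 members, 70 windows in all. SLC2A3, called with hypoxia in bright cells, had no window. ACGTG was in 37.1% of the members' windows and in 21.4% of all 35116 windows, GCGTG in 47.1% and 36.5%, and either in 65.7% and 48.4%. The palindrome CACGTG, which holds ACGTG on each strand and so counts for 2 matches, was in 12.9% and 7.26%. Counted by gene, 94.4% of the 36 members and 52.4% of all 27305 genes had either motif in some window. This count favours the members, which had more windows per gene. The background also holds genes that were not tested here, and it was not matched for base composition. Where a gene has several windows, the one with most matches is printed, 5′ to 3′, with capitals marking each match on either strand (CACGT and CACGC are ACGTG and GCGTG read from the other strand). A match is a description of the letters and not evidence of binding.
LDHA promoter, GRCh38.p14 chr11:18394313-18394612, plus strand: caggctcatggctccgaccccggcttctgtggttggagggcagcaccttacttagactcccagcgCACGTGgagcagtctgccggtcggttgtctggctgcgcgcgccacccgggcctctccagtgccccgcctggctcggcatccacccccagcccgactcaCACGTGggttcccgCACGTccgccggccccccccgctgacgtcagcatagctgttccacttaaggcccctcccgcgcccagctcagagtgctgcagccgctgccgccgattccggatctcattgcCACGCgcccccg
HK2 promoter, GRCh38.p14 chr2:74834920-74835219, plus strand: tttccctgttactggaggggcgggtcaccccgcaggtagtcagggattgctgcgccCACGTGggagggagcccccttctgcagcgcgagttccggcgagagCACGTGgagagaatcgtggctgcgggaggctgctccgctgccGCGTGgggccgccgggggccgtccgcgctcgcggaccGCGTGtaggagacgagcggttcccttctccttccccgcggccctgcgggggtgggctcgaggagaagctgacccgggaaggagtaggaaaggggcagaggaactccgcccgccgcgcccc
PDK1 promoter, GRCh38.p14 chr2:172555840-172556139, plus strand: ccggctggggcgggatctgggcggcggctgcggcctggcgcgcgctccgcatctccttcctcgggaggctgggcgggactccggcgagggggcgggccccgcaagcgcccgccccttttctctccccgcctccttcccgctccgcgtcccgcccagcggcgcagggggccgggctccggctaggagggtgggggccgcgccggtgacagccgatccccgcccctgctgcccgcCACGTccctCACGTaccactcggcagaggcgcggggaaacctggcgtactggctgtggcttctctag
PFKFB4 promoter, GRCh38.p14 chr3:48556754-48557053, minus strand: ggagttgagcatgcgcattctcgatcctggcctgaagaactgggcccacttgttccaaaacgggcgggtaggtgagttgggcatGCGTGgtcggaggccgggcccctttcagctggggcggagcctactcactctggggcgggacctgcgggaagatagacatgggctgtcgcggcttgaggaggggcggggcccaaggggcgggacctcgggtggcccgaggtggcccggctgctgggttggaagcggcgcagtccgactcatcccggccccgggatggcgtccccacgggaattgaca
SLC16A3 promoter, GRCh38.p14 chr17:82234649-82234948, plus strand: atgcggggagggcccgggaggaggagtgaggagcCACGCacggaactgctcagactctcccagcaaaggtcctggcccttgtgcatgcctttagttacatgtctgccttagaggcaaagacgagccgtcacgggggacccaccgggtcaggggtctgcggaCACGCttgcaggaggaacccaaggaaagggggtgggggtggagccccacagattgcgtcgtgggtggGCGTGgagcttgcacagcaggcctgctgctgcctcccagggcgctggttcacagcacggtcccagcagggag
PGAM1 promoter, GRCh38.p14 chr10:97427568-97427867, plus strand: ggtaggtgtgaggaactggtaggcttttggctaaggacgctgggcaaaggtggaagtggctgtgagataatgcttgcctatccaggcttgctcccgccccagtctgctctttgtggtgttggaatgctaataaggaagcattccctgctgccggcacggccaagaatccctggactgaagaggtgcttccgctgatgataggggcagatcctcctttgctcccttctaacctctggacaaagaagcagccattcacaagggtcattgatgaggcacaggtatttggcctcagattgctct
ALDOC promoter, GRCh38.p14 chr17:28576846-28577145, minus strand: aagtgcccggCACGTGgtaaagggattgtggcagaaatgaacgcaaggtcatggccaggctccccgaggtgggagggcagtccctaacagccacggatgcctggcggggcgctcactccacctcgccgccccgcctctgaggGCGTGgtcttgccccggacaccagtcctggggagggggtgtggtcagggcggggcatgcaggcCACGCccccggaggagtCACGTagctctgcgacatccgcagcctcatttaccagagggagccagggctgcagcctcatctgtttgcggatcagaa
PYGL promoter, GRCh38.p14 chr14:50944434-50944733, minus strand: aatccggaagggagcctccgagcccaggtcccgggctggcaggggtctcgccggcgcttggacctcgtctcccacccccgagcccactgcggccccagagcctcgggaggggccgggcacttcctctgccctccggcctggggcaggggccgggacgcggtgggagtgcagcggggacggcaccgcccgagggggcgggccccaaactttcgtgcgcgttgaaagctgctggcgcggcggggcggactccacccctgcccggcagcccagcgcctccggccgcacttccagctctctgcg
Of the 5 members whose hypoxic bright libraries all lay above the other 9, LDHA and HK2 had 5 and 4 matches to ACGTG and 1 and 2 to GCGTG. PDK1 had 2 matches to ACGTG and 0 to GCGTG, PFKFB4 had 0 and 1, and PGAM1 had none of either. SLC16A3, which like PFKFB4 rose at 3% oxygen in bright cells, had 3 matches to GCGTG in the window shown, and 2 to ACGTG in another. Members lower in bright than in dim cells in hypoxia held the letters as well: ALDOC, the lowest, had 3 matches to ACGTG and 2 to GCGTG, and MPC1 had 2 to GCGTG, whereas PYGL had none. Of the members called in that comparison, 9 of 10 higher and 4 of 5 lower ones had a match in some window, so matches did not separate the directions.

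Glucose enters through its transporters, of which SLC2A1 (GLUT1) is the widely expressed form and SLC2A3 (GLUT3) the high-affinity form. Values of SLC2A3 (chromosome 12, 7919228 to 7936296, hg38) were 2652, 2684 and 2653 in normoxic dim, 2282, 2043 and 2022 in normoxic bright, 2340, 2739 and 2751 in hypoxic dim and 4287, 3510 and 2539 in hypoxic bright libraries. In bright cells the hypoxic libraries were all above the normoxic ones, but hypoxic bright replicate 3 lay below both hypoxic dim replicates 2 and 3. The rise in bright cells was 0.67 ± 0.14 (log2, SE, adjusted p = 0.0485, limma), and the log2 fold change of bright against dim was 0.37 ± 0.14 under low oxygen (adjusted p = 0.0707) against -0.33 ± 0.14 at normoxia (adjusted p = 0.222), neither passing. SLC2A1 read 3846, 3728 and 2825 in hypoxic bright libraries and between 2470 and 2997 in the other 9. Hypoxic bright replicate 3 thus sat inside the range of the others. SLC2A1 was higher in bright than in dim cells in hypoxia by 0.36 ± 0.11 (adjusted p = 0.0307), and its hypoxia effect in bright cells, 0.37 ± 0.11, did not pass (adjusted p = 0.137).

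The hexokinases HK1 and HK2 trap glucose as its phosphate at the mitochondrial surface, and GPI turns that product into fructose phosphate. HK2 (chromosome 2, 74832655 to 74893354, hg38) stood at 3853, 4539 and 4112 in normoxic dim, 5260, 4576 and 4909 in normoxic bright, 4216, 3744 and 3722 in hypoxic dim and 8115, 7557 and 5732 in hypoxic bright libraries. Every hypoxic bright library was above every other library, and normoxic bright libraries were above normoxic dim ones. HK2 was 1.82-fold higher in bright than in dim cells in hypoxia (0.86 ± 0.12, adjusted p = 0.000292) and passed under all 16 alternatives tried, at 0.76 to 1.01. Its difference was 0.24 ± 0.12 in normoxia (adjusted p = 0.288), and its hypoxia effect in bright cells did not pass (0.52 ± 0.12, adjusted p = 0.0523). The other hexokinase, HK1, was at 5138, 5452 and 5088 in normoxic dim, 5253, 4058 and 4291 in normoxic bright, 5004, 4392 and 3940 in hypoxic dim and 5320, 4896 and 4664 in hypoxic bright libraries. Its groups overlapped except for hypoxic dim below normoxic dim, and it passed no comparison. The largest HK1 effect was -0.24 ± 0.10 with hypoxia in dim cells (adjusted p = 0.254). GPI passed nothing either, at 25091 to 31671 in hypoxic bright and 22107 to 27329 in the other libraries.

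Phosphofructokinase, the committing step, is a tetramer built from liver (PFKL), muscle (PFKM) and platelet (PFKP) subunits. PFKL (chromosome 21, 44300034 to 44327381, hg38) read 7022, 7535 and 7132 in normoxic dim, 9323, 8423 and 7895 in normoxic bright, 7367, 6755 and 6293 in hypoxic dim and 9152, 9157 and 8871 in hypoxic bright libraries. The 6 bright libraries were all above the 6 dim ones. The difference between the subsets was 0.42 ± 0.08 in hypoxia (adjusted p = 0.002) and 0.24 ± 0.08 in normoxia, where it did not pass (adjusted p = 0.0839). PFKP was at 9142, 9549 and 9066 in normoxic dim, 8834, 7794 and 7089 in normoxic bright, 8783, 9199 and 7707 in hypoxic dim and 9447, 9195 and 8364 in hypoxic bright libraries. It was below dim in each normoxic bright library (-0.23 ± 0.09, adjusted p = 0.164) and overlapped in hypoxia (0.07 ± 0.09, adjusted p = 0.567). PFKM was scarce, at 28, 55 and 47 in hypoxic bright and 141, 108 and 83 in hypoxic dim libraries, a difference of -1.35 ± 0.41 (adjusted p = 0.0262) that passed in 7 of 16 alternatives. That call was lost without hypoxic dim replicate 1 (-1.16, adjusted p = 0.0682) or 2 (-1.35, adjusted p = 0.0674), and without hypoxic bright replicate 1 (-1.07, adjusted p = 0.115) or 3 (-1.44, adjusted p = 0.0504). Exons of PFKM share 454 bases, 10.7% of its length, with SENP1 on the opposite strand (mean value 678), and the strand of counting is not given.

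PFKFB2, PFKFB3 and PFKFB4 make and degrade fructose-2,6-bisphosphate, the sugar that activates phosphofructokinase, and TIGAR, a target of p53, only degrades it. Values of PFKFB4 (chromosome 3, 48517684 to 48562774, hg38) were 184, 226 and 229 in normoxic dim, 236, 237 and 159 in normoxic bright, 250, 363 and 265 in hypoxic dim and 1204, 706 and 387 in hypoxic bright libraries. All hypoxic bright libraries were the highest of the 12, although they differed among themselves by more than any other group did. The rise with hypoxia in bright cells was 1.73 ± 0.31 (adjusted p = 0.0288) and the excess over dim cells in hypoxia was 1.26 ± 0.31 (adjusted p = 0.0111); both comparisons share the hypoxic bright libraries. In dim cells the hypoxic libraries were also all above the normoxic ones, at 0.44 ± 0.31 (adjusted p = 0.491). Without hypoxic bright replicate 1 the effect in bright cells was 1.33 (adjusted p = 0.118), and without replicate 3 it was 2.15 (adjusted p = 0.00201). PFKFB4 shares 1057 exon bases with UCN2 on the same strand, whose mean value was 5.17.

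TIGAR was the member of this set lower in bright cells. Its values were 308, 324 and 361 in normoxic dim, 228, 250 and 260 in normoxic bright, 324, 329 and 395 in hypoxic dim and 235, 206 and 203 in hypoxic bright libraries. All 6 bright libraries lay below all 6 dim ones. In hypoxia the log2 fold change of bright against dim was -0.70 ± 0.12 (adjusted p = 0.00181), and the difference of -0.43 ± 0.12 in normoxia did not pass (adjusted p = 0.06). PFKFB3, the inducible form, was at 2933, 2251 and 2006 in hypoxic bright and between 1560 and 2181 in the other libraries and passed nothing; its effect in bright cells was 0.43 ± 0.13 (adjusted p = 0.144). PFKFB2, best known from heart, ranged from 147 to 282 and passed nothing.

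**Figure D3:**
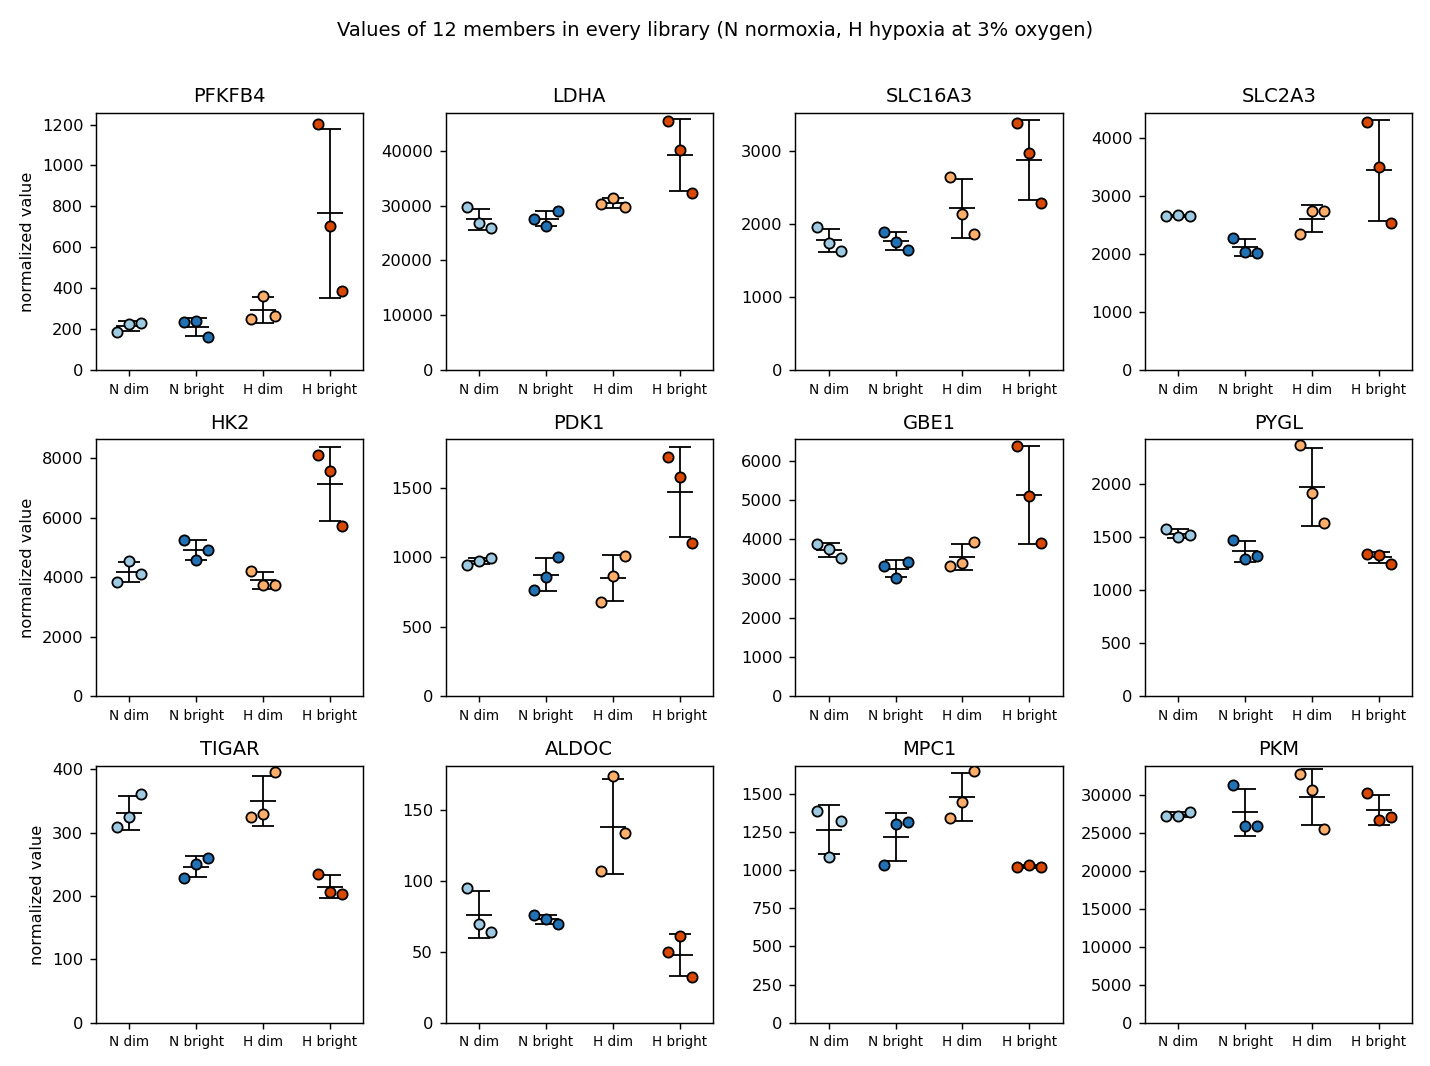
Normalized values of 12 members in every library (points), with the group mean and SD (bars, n = 3); each axis starts at 0. The points of PFKFB4, LDHA, HK2 and PDK1 in hypoxic bright cells are all above the other 9, those of ALDOC and MPC1 all below, and PKM is shown as a member that passed nothing.

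In lower glycolysis the 9 members from aldolase to pyruvate kinase gave 1 higher call (PGAM1) and 1 lower call (ALDOC) between the subsets in hypoxia, and no call elsewhere. ALDOC (chromosome 17, 28573115 to 28576948, hg38) was at 95, 70 and 64 in normoxic dim, 76, 73 and 70 in normoxic bright, 107, 174 and 134 in hypoxic dim and 50, 61 and 32 in hypoxic bright libraries. Hypoxic dim libraries were above all others and hypoxic bright ones below all others. ALDOC was 2.90-fold lower in bright than in dim cells in hypoxia (-1.54 ± 0.26, adjusted p = 0.0014) and passed under all 16 alternatives, at -1.77 to -1.19. Its effects of hypoxia, 0.84 ± 0.26 in dim cells (adjusted p = 0.155) and -0.65 ± 0.26 in bright cells (adjusted p = 0.258), did not pass. The highest ALDOC value and the highest airway marker sum, 19229, were both in hypoxic dim replicate 2, and without the library highest in those markers in each group the difference was -1.56 (adjusted p = 0.0269). ALDOA, the main aldolase, lay at 51464, 44575 and 40398 in hypoxic bright and between 33097 and 40747 in the other libraries, with 0.35 ± 0.10 for hypoxia in bright cells (adjusted p = 0.112).

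PGAM1, the mutase after phosphoglycerate kinase, was at 2847, 2552 and 2123 in hypoxic bright and between 1736 and 2065 in the other 9 libraries. No hypoxic bright library overlapped the others. Its excess over dim cells in hypoxia was 0.36 ± 0.11 (adjusted p = 0.0266), lost without hypoxic dim replicate 3 (0.27, adjusted p = 0.078), hypoxic bright replicate 1 (0.26, adjusted p = 0.126) or hypoxic bright replicate 2 (0.34, adjusted p = 0.0904). ENO2, the enolase of neurons, was 1168, 1057 and 1141 in normoxic dim, 901, 748 and 615 in normoxic bright, 1085, 1604 and 1295 in hypoxic dim and 1279, 1047 and 837 in hypoxic bright libraries. It was lower in every normoxic bright library than in any normoxic dim library, without passing (-0.59 ± 0.17, adjusted p = 0.0635). TPI1, GAPDH, PGK1, ENO1 and PKM passed nothing. For hypoxia in bright cells their log2 fold changes were 0.32 ± 0.09, 0.17 ± 0.09, 0.23 ± 0.09, 0.17 ± 0.09 and 0.02 ± 0.10, and the 95% interval of PKM, pyruvate kinase, was -0.19 to 0.23. RefSeq lists 65 pseudogenes of GAPDH, 13 of PGAM1, 6 of LDHA and 5 of PKM. Among the genes counted here were 0 of those of GAPDH, LDHA and PKM. For PGAM1 there was 1, at 0.00401% of the summed value of PGAM1. How reads that match both a gene and a copy were counted is not given.

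For lactate, LDHA and LDHB are the subunits of lactate dehydrogenase, the former favoured where pyruvate is reduced. SLC16A3 (MCT4) exports lactate, SLC16A1 (MCT1) carries it both ways, and BSG (basigin) brings both to the surface. LDHA (chromosome 11, 18394389 to 18408218, hg38) read 29644, 26863 and 25963 in normoxic dim, 27575, 26261 and 28932 in normoxic bright, 30210, 31451 and 29730 in hypoxic dim and 45435, 40046 and 32272 in hypoxic bright libraries. Each hypoxic bright library was above the other 9, and each hypoxic dim library above each normoxic dim one. LDHA rose with hypoxia in bright cells by 0.50 ± 0.10 (adjusted p = 0.0448), and in hypoxia it was higher in bright than in dim cells by 0.35 ± 0.10 (adjusted p = 0.0228). The effect in dim cells was 0.15 ± 0.10 (adjusted p = 0.472), and the difference of the effects, 0.35 ± 0.14, did not pass (adjusted p = 0.184). LDHB had 15821, 14025 and 13862 in normoxic dim, 14992, 15260 and 16768 in normoxic bright, 17583, 16234 and 15801 in hypoxic dim and 15022, 14914 and 15368 in hypoxic bright libraries. It passed nothing, at 0.18 ± 0.07 with hypoxia in dim cells (adjusted p = 0.208) and -0.05 ± 0.07 in bright cells.

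SLC16A3 (chromosome 17, 82228406 to 82239499, hg38) was at 1952, 1734 and 1634 in normoxic dim, 1885, 1758 and 1641 in normoxic bright, 2647, 2131 and 1858 in hypoxic dim and 3377, 2965 and 2282 in hypoxic bright libraries. Hypoxic bright libraries were above all normoxic ones, but replicate 3 was below hypoxic dim replicate 1. The rise in bright cells was 0.69 ± 0.14 (adjusted p = 0.0475). In dim cells the effect was 0.31 ± 0.14 (adjusted p = 0.294), and the difference of these effects was 0.38 ± 0.20 (adjusted p = 0.294). SLC16A1 ranged from 5747 to 7503 and passed nothing. BSG was 13585, 12910 and 13349 in normoxic dim, 14716, 14857 and 13837 in normoxic bright, 14523, 15804 and 14042 in hypoxic dim and 12965, 13067 and 14256 in hypoxic bright libraries. Its effect of hypoxia was 0.15 ± 0.07 in dim (adjusted p = 0.248) and -0.11 ± 0.07 in bright cells (adjusted p = 0.445).

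Pyruvate enters mitochondria through MPC1 and MPC2, which form the mitochondrial pyruvate carrier, PDHA1 is the alpha subunit of pyruvate dehydrogenase, and the kinases PDK1, PDK2 and PDK3 switch that enzyme off. PDK1 (chromosome 2, 172555373 to 172625623, hg38) was at 947, 976 and 992 in normoxic dim, 768, 857 and 1003 in normoxic bright, 676, 868 and 1009 in hypoxic dim and 1723, 1578 and 1104 in hypoxic bright libraries. All hypoxic bright libraries were above the other 9, replicate 3 by little. PDK1 was higher in bright than in dim cells in hypoxia by 0.78 ± 0.17 (adjusted p = 0.00523), while hypoxia in bright cells gave 0.73 ± 0.17 (adjusted p = 0.0628). PDK3 was 1386, 1666 and 1483 in normoxic dim, 1321, 1386 and 1382 in normoxic bright, 1257, 1174 and 1528 in hypoxic dim and 1926, 1905 and 1543 in hypoxic bright libraries. Its libraries did not overlap between the subsets in hypoxia (0.44 ± 0.11, adjusted p = 0.0124), replicate 3 of each lying close together. PDK2 ranged from 720 to 1050 and passed nothing.

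MPC1 was called in hypoxia and MPC2, its partner in the carrier, was not. MPC1 was at 1340, 1448 and 1650 in hypoxic dim and at 1020, 1032 and 1018 in hypoxic bright libraries, with 1035 to 1388 in normoxia. The hypoxic bright libraries were the lowest of the 12. MPC1 was lower in bright than in dim cells in hypoxia, with a log2 fold change of -0.53 ± 0.12 (adjusted p = 0.00604). MPC2 lay between 1269 and 1512 in all libraries, with -0.03 ± 0.08 in the same comparison (95% interval -0.20 to 0.13). The difference between the genes was not tested. PDHA1 (3728 to 4565) passed nothing and shares 27.2% of its exon length with MAP3K15 on the opposite strand.

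Among the glycogen genes, GYS1 lengthens the chains, GBE1 adds branches, PYGL and PYGB release glucose phosphate, UGP2 makes the UDP-glucose that feeds synthesis, and PGM1 and PGM2 are phosphoglucomutases. GBE1 (chromosome 3, 81489699 to 81761799, hg38) read 3870, 3756 and 3528 in normoxic dim, 3310, 3004 and 3430 in normoxic bright, 3322, 3387 and 3926 in hypoxic dim and 6372, 5105 and 3898 in hypoxic bright libraries. Replicates 1 and 2 of hypoxic bright stood apart from all others, and replicate 3 fell below hypoxic dim replicate 3. GBE1 was higher in bright than in dim cells in hypoxia by 0.51 ± 0.14 (adjusted p = 0.016), with overlapping groups, and hypoxia in bright cells gave 0.63 ± 0.14 (adjusted p = 0.051). PYGL (chromosome 14, 50905217 to 50944530, hg38) was 1576, 1496 and 1520 in normoxic dim, 1474, 1289 and 1323 in normoxic bright, 2359, 1910 and 1633 in hypoxic dim and 1341, 1327 and 1248 in hypoxic bright libraries. Hypoxic dim libraries were the highest of the 12, and bright libraries were below dim ones at either oxygen level. PYGL was lower in bright than in dim cells in hypoxia, at -0.58 ± 0.11 on the log2 scale (adjusted p = 0.00281), and its effect of hypoxia in dim cells was 0.35 ± 0.11 (adjusted p = 0.163). Hypoxic dim replicate 1 held both the highest PYGL value and the highest sum of granule genes, 15138. Without it the difference in hypoxia was -0.44 (adjusted p = 0.00517).

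GYS1 was at 3127, 2978 and 2867 in hypoxic bright and 2510, 2620 and 2248 in hypoxic dim libraries, without overlap. The difference of 0.28 ± 0.09 (adjusted p = 0.0344) was the smallest called among the members and passed in 7 of 16 alternatives. GYS1 lost that call without hypoxic dim replicate 3 (0.22, adjusted p = 0.0947) or without any single hypoxic bright library (0.25 to 0.31, adjusted p = 0.0514 to 0.121). PYGB, the phosphorylase named for brain, had 2717, 2823 and 3095 in hypoxic bright and 3764, 3166 and 3183 in normoxic bright libraries, with -0.23 ± 0.09 (adjusted p = 0.268). PGM1, PGM2 and UGP2 passed nothing, and their log2 fold changes lay between -0.14 and 0.28 in all 5 comparisons.

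Ratios of values per exon length within a library compare related members free of the library's scaling. LDHA over LDHB was 2.32, 2.06 and 1.61 in hypoxic bright libraries and between 1.32 and 1.48 in the other 9. HK2 over HK1 was 1.07, 1.08 and 0.861 against 0.526 to 0.802. Hypoxic bright libraries thus stood apart from all others in both. PFKFB4 over TIGAR was 8.11, 5.43 and 3.02 in hypoxic bright and 0.946 to 1.75 in other libraries. PDK1 over PDHA1 was 0.237, 0.211 and 0.138 against 0.0758 to 0.131, and GBE1 over PYGL was 4.36, 3.53 and 2.87 against 1.29 to 2.38. GYS1 over PYGL was apart in hypoxic bright libraries as well, at 1.77 to 1.83 against 0.837 to 1.70. Ratios of SLC16A3 to SLC16A1, SLC2A1 to SLC2A3 and PFKL to PFKP overlapped. PFKL over PFKP instead followed the subset, at 0.770 to 0.885 in the 6 bright libraries and 0.584 to 0.667 in the 6 dim ones. The pairs were chosen with values of these genes known, so the ratios describe and carry no test.

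**Figure D4:**
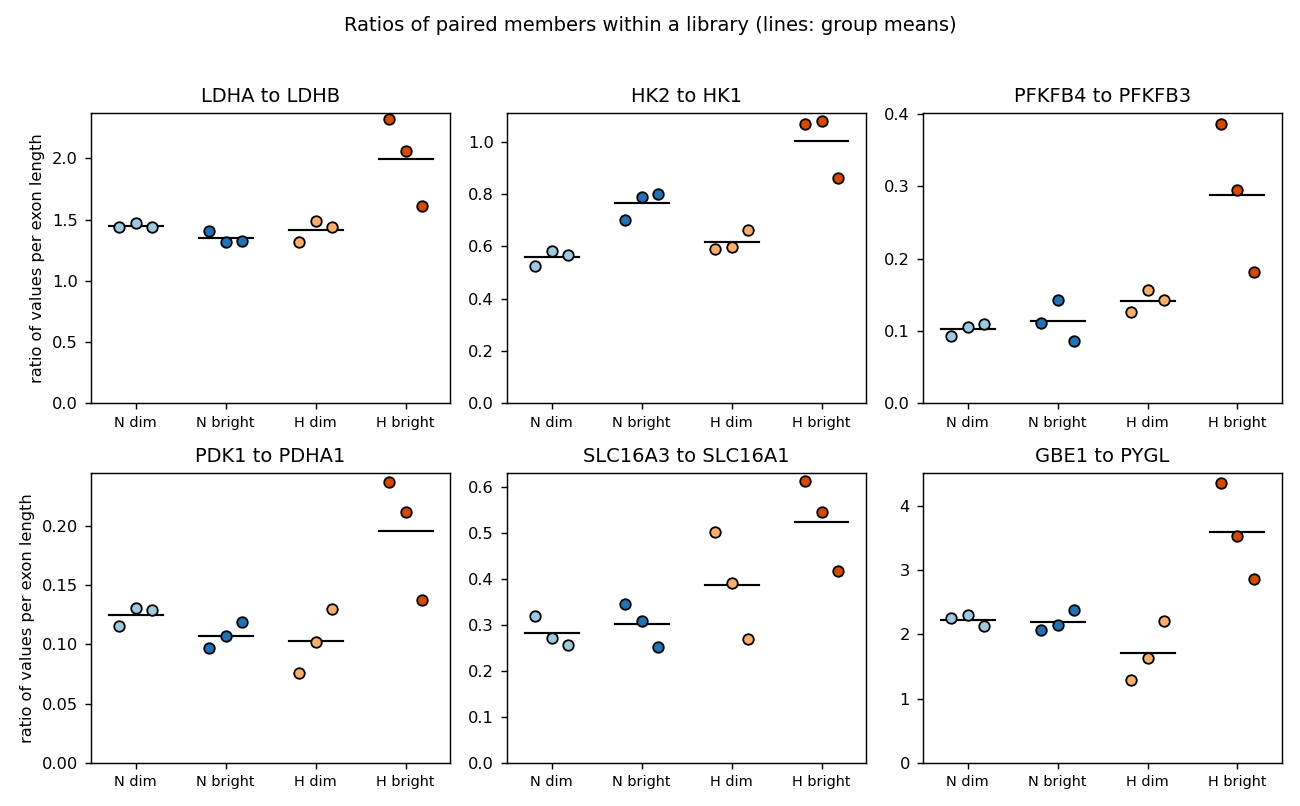
Ratio of values per exon length for 6 pairs of members in every library (points) with group means (lines); each axis starts at 0. Hypoxic bright libraries lie above the other 9 in all panels except SLC16A3 to SLC16A1, and replicate 3 is the lowest of the 3 hypoxic bright points in each panel.

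The 3 hypoxic bright libraries differed among themselves in the same sense for most members. Replicate 1 was the highest of the 3 in 28 of 39 members (71.8%, against 34.8% of all genes tested), and replicate 3 was the lowest in 30 of 39 (76.9%, against 38.5%). Of 10 HIF targets outside glycolysis, replicate 1 was the highest for 9 and replicate 3 the lowest for 9. P4HA1, a collagen prolyl hydroxylase, was at 3865, 2803 and 1945 in these libraries, and BNIP3, a mitophagy receptor, at 1918, 1499 and 854. In normoxic bright, replicate 1 was the highest in 24 of 39 members (61.5%, against 40.8% of all genes tested), and in hypoxic dim, replicate 3 was the lowest in 24 (61.5%, against 39.4%). In 5 members, HK2, PFKFB4, PGAM1, LDHA and PDK1, all hypoxic bright libraries were above the other 9 (12.8%, against 4.77% of all genes tested). In 2 members, ALDOC and MPC1, all were below (5.13%, against 4.28%). Airway markers in hypoxic bright replicates 1, 2 and 3 summed to 277, 1152 and 50, muscle markers to 701, 966 and 916, and granule genes to 54, 53 and 47. Replicate 3 was thus the lowest for airway and granule genes too, and replicate 1 the highest for granule genes, by little. Their part in the members' order was not tested.

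**Figure D5:**
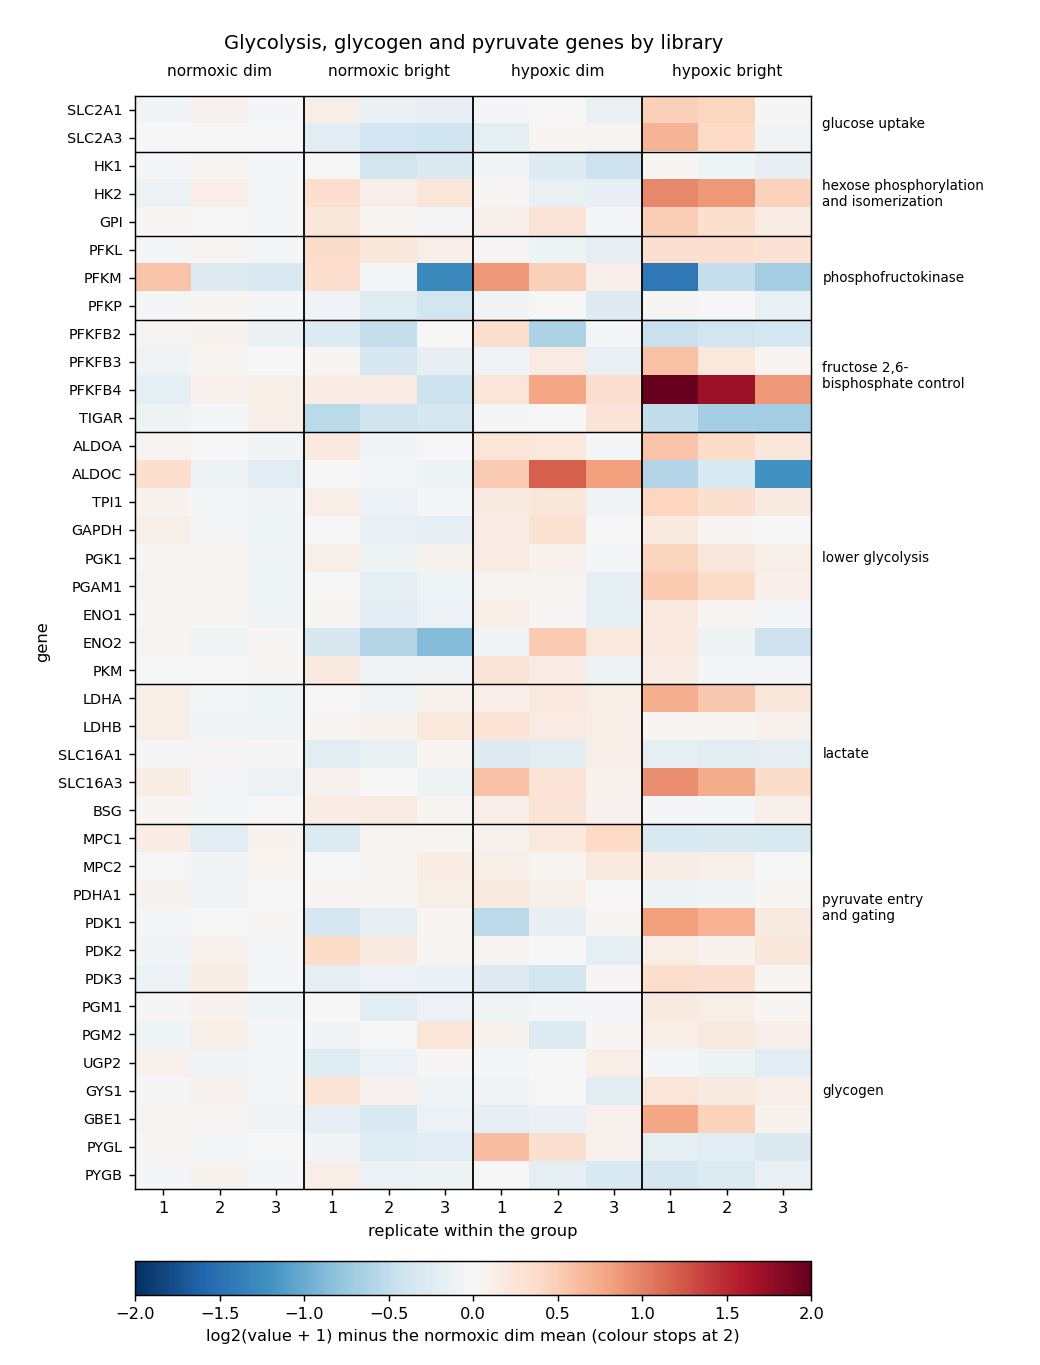
Log2 of value plus 1 minus the normoxic dim mean for the 39 members (rows, by role) in the 12 libraries (columns, by group and replicate); the colour scale stops at 2 in each direction. Red in the hypoxic bright columns is deepest for PFKFB4 and HK2 and is paler in the library of replicate 3, and ALDOC is red in hypoxic dim and blue in hypoxic bright columns.

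The 10 HIF targets outside glycolysis are described beside the label of hypoxia. They were listed with earlier results of these data known, so they are no independent check of that label. In bright cells 5 rose with hypoxia and none fell, where 0.478% of all genes tested rose and 0.359% fell. The 5 were VEGFA (0.67 ± 0.10), P4HA1 (1.18 ± 0.18), BNIP3 (1.29 ± 0.21), KDM3A (0.61 ± 0.10) and ANKRD37 (1.50 ± 0.32). Of the 10, 8 had a log2 fold change above 0. The others, not called, were CA9 and EGLN3. CA9 was at 89, 81 and 4 in normoxic bright and 4, 0 and 0 in hypoxic bright libraries, and EGLN3 at 62, 67 and 4 and at 3, 31 and 2. In dim cells none passed, with ANKRD37 at 1.35 ± 0.32 (adjusted p = 0.0931) and VEGFA at 0.33 ± 0.10 (adjusted p = 0.138). The difference of the effects passed for KDM3A, a histone demethylase (0.67 ± 0.14, adjusted p = 0.0335), and P4HA1 (1.10 ± 0.25, adjusted p = 0.041). Between the subsets in hypoxia 5 of the 10 were higher and 2 lower in bright cells, where 12.9% and 13.6% of all genes tested were. The lower ones were CA9, the carbonic anhydrase often used as a hypoxia marker, at 4, 0 and 0 against 20, 247 and 84, and NDRG1, a stress-responsive gene, at 1632, 1317 and 1209 against 1981, 2740 and 1717 (-0.61 ± 0.18, adjusted p = 0.0217). NDRG1 was also lower in bright cells in normoxia (-0.69 ± 0.18, adjusted p = 0.0309). CA9 was highest in hypoxic dim replicate 2, the library highest in airway markers, and a link between them was not tested.

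Of 71 further genes of these pathways that are no members, 54 were tested. In hypoxia 9 were higher and 7 lower in bright than in dim cells (16.7% and 13%), near the 12.9% and 13.6% of all genes tested, so these counts are not a result about the pathways. In the other comparisons 1 had a lower hypoxia effect in bright than in dim cells, and the rest called none. Those with the smallest p-values are given as single genes. SLC2A9, a urate and hexose transporter, was higher in bright cells by 1.06 ± 0.14 (adjusted p = 0.000223), the glycogen-targeting phosphatase subunit PPP1R3B by 0.72 ± 0.13 (adjusted p = 0.00198) and MLXIP, a glucose-sensing transcription factor also called MondoA, by 0.45 ± 0.08 (adjusted p = 0.00178). PHKG2, the catalytic subunit of phosphorylase kinase, was lower, at -0.42 ± 0.08 (adjusted p = 0.00327). GALM, the mutarotase, and GYG2, a glycogenin, were also lower, at 0, 1 and 0 for GALM and 0, 0 and 1 for GYG2 in hypoxic bright libraries. In hypoxic dim libraries GALM was at 137, 33 and 11 and GYG2 at 128, 24 and 12, so for each most of the level lay in replicate 1, the library highest in granule genes. A link between these values and the granule genes was not tested.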

How the data were processed

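The authors' deposited table gives a score per gene and library, read here as read counts that they divided by a median-of-ratios size factor (DESeq2, per the table's name and values) and rounded. Per the submitters' processing notes, reads were trimmed with Trimmomatic 0.39 and aligned with STAR 2.4.2a to hg38. Not given in the sources used here are the counting tool, its annotation and its strand setting. Because the values are not raw counts, no count test was used. The fit to log2(value + 1) used limma 3.58.1 (R 4.3.3), with 1 mean per group over all 12 libraries, empirical Bayes moderation with a mean trend and 8 residual degrees of freedom. Genes at 10 or more in at least 3 libraries (15057) were tested, 2-sided, with Benjamini-Hochberg adjustment in each of 5 comparisons. Fold changes are on the log2(value + 1) scale and understate those of low genes. The fit was run on simulated data with noise drawn separately for each gene, so shifts shared by the genes of a library were not covered. The members and lists were chosen with earlier results of these data known. Values of every library are given for the 6 members with the smallest adjusted p in each comparison, any member that passed could be named, and of the other pathway genes up to 3 per direction and comparison. Rescaling, pseudocounts of 0.1 and 10, other filters (none, or a mean of 50), a replicate block and leaving out libraries were tried. The replicate numbers were not read as pairs. Of 6 pairs of groups, 0 had every correlation of same-numbered deviations above 0.1 (range -0.23 to 0.45). This does not exclude pairing of some libraries, as replicate 1 of normoxic dim and of normoxic bright reached 0.448. Levels per kb use the exon length in the table.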

Additional observations from a re-analysis of the deposited data

Results flagged for a closer look

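ALDOC was singled out because its 3 hypoxic libraries lay above all normoxic ones in dim cells and below all of them in bright cells. The difference of the hypoxia effects, bright minus dim, was -1.49 ± 0.37 on the log2 scale and did not pass (adjusted p = 0.0525, limma). GALM was singled out because the same difference passed, at -5.53 ± 1.07 (adjusted p = 0.023). Its values were 11, 6 and 9 in normoxic dim, 17, 14 and 10 in normoxic bright, 137, 33 and 11 in hypoxic dim and 0, 1 and 0 in hypoxic bright libraries. With values this low the fitted size depends on the pseudocount and is no measure of a fold.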

How the results depend on the processing

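The 19 called values kept their sign under all 304 alternative fits: 200 kept the call, 104 lost it and 0 turned. Of 3050 alternative fits of the 176 values that were not called, 137 changed sign without passing and 39 passed with the same sign. In hypoxia, the 10 members higher in bright cells became 3 with no filter, 1 without the library highest in airway genes in each group, 2 without that highest in muscle genes and 2 without that highest in granule genes. Of all genes tested 4.4%, 2.35%, 4.13% and 7.43% were then higher, in the same order. The counts of higher members in the marker cases are thus near the background. The granule case leaves out replicate 1 of each subset in hypoxia. Among hypoxic bright libraries, the one left out was highest by little for granule genes (54, 53 and 47 in replicates 1, 2 and 3). The same holds for muscle genes (701, 966 and 916). In hypoxia the airway and muscle cases leave out the same libraries, replicate 2 of each subset, so their fold changes are identical and they are not separate checks. HK2 was at 0.78 in both and 0.82 in the granule case. The 5 lower ones became 1 in the airway case, near the 2.12% of all genes tested that were then lower. They became 4 in the muscle case, with the same fold changes, where 3.94% of all genes tested were lower. In the granule case 5 were lower, where 7.89% of all genes tested were, with PFKM lost and ENO2 gained. Leaving out single libraries gave 4 to 13 higher, where 7.26% to 14% of all genes tested were. For hypoxia in bright cells the 4 became 6 with a pseudocount of 0.1 (GBE1 and HK2 joined), 2 with quantile normalization, 1 with a pseudocount of 10, 0 with no filter and 0 in each marker case, and 0 to 9 without single libraries. Of all genes tested 0.565%, 0.332%, 0.312%, 0.088% and 0% then rose, and 0.0332% to 0.551% without single libraries. Without single libraries, 0 to 2 members were lower in normoxic bright cells, 0 to 1 rose in hypoxic dim cells, and 0 to 8 and 0 to 2 passed for the difference of effects. Of all genes tested 2.34% to 4.44%, 0% to 2.01%, 0.0398% to 5.19% and 0.299% to 4.91% did, in the same order. The marker cases keep 2 libraries a group, and the cause of the other changes was not tested. The calls over all genes ranged from 179 to 999 (1003 as reported) for the subsets in normoxia, 673 to 4347 (3994) in hypoxia, 0 to 637 (35) for hypoxia in dim cells, 1 to 166 (126) in bright cells and 4 to 1520 (355) for the difference. With 3 libraries a group, 95% intervals of abundant members span about 0.2 on either side on the log2 scale, and those of PFKM, ALDOC and PFKFB4 are wider.

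With the replicate number as a block, 12 members were higher and 5 lower in bright cells in hypoxia, 5 rose with hypoxia in bright cells and 0 were called elsewhere. Of all genes tested 12% were then higher and 13.1% lower in bright cells in hypoxia, so the lower count is near the background. In bright cells 0.478% of all genes tested rose with hypoxia. Same-numbered libraries were the best match in 7 of 18 cases, so the numbers are not read as pairs.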
